A study of Mus musculus with 6 samples.

Results

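Expression of 5 genes, Prkg2, 1500015O10Rik, Lgals7, Nt5dc2 and U90926, was examined in single cells of the C3(1)-Tag mouse, 5 of the 31055 features counted in its 6 libraries. The genes were chosen by their very large Tumor changes in epithelial or fibroblast cells of these same data, 4 of them upwards and U90926 downwards, so those differences are described here without a test. In this line, the C3(1) promoter of a rat prostate gene drives the SV40 large T antigen, which inactivates the p53 and Rb tumour suppressors, and all 6 libraries came from female mice that carried the transgene, in a line first made on the FVB/NJ background. The Prepuberty libraries (n = 2) were made from whole mammary glands at 5 weeks, the DCIS libraries (n = 2) from whole glands that held ductal carcinoma in situ at 14 weeks, and the Tumor libraries (n = 2) from palpable tumours at more than 18 weeks. No library of a mouse without the transgene entered the comparisons, so age, lesion and transgene expression advance together. The labels do not say whether the libraries of a state came from different mice, and the study calls them technical replicates in one place and separate specimens in another. An SE or p-value therefore measures only the spread between libraries. The labels give 1 digestion and 1 library chemistry for all samples, while the methods give another dissociation kit for tumours and a later library chemistry for Tumor 2 alone. Where that holds, dissociation and state cannot be told apart, and neither can chemistry and library in any difference between Tumor 1 and Tumor 2 given below.

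After filtering, 21537 of 23835 barcodes remained, 2549 to 4305 per library, with a median of 6568 to 13620 UMIs (unique molecular identifiers, 1 per captured transcript) per cell. Pairs of libraries shared 7 to 32 cell barcodes, at most 0.826% of the smaller library. Clusters were named from marker genes with the ending "-like", and 6 of 25 clusters stayed unnamed. T antigen, the transgene's own transcript and the check of the model, was counted in epithelial-like cells at 11.4 and 0.520 CPM in Prepuberty 1 and 2, 36.7 and 18.2 CPM in DCIS 1 and 2, and 265 and 58.1 CPM in Tumor 1 and 2, where CPM are UMIs per 1000000 UMIs of the class in that library. It was detected in 30.3% and 47.4% of fibroblast-like cells of Tumor 1 and 2, and in at most 0.625% of those of any other library. In T-cell-like cells, which should lack the transcript, it was detected in 3.41% and 0.971% of cells of Tumor 1 and 2. The values of the fibroblast-like class are given below by cluster as well. The name of the myoepithelial-like class, cluster 9, was not borne out in its Tumor cells, 60 of Tumor 1 and 104 of Tumor 2. Acta2 and Myh11, the smooth muscle actin and myosin that define this contractile layer, were at 0 CPM in both Tumor libraries, against at least 3240 and 203 CPM in the other 4. Of the 8 myoepithelial markers, 5 lay below the range of the other libraries in both Tumor libraries, and the summed level of the list was 1908 and 4232 CPM against 6133 to 11741 CPM. Krt14, a basal keratin, remained at 992 and 3734 CPM, Epcam was at 2253 and 1862 CPM against 197 to 830 CPM, and T antigen was detected in 56.7% and 53.8% of these cells against at most 0.532%. Clusters made without integration placed 0 Tumor cells in the myoepithelial-like cluster. These cells are called the Tumor cells of cluster 9, and their values beside those of the other libraries do not compare like cells.

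Prkg2 encodes cGMP-dependent protein kinase type II, a membrane-anchored kinase that is activated by cyclic GMP, the messenger made by the natriuretic peptide receptors and by guanylate cyclases that sense nitric oxide. 1500015O10Rik is the mouse Ecrg4 gene in RefSeq, which encodes augurin, a small secreted protein precursor that was described as lost in oesophageal cancer. Lgals7 encodes galectin-7, a beta-galactoside-binding lectin typical of stratified epithelia such as the epidermis. It is carried there by keratinocytes, and outside it also by myoepithelial cells. Nt5dc2 belongs to a family of proteins with a 5′-nucleotidase domain whose substrate is poorly defined. U90926 is a little-studied transcript known from macrophages exposed to bacterial lipopolysaccharide, and it is annotated as protein-coding in GENCODE M21 and as a long non-coding RNA in RefSeq.

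On GRCm38, with the gene models of GENCODE M21, Prkg2 (ENSMUSG00000029334) spans chr5:98929773-99037351 on the minus strand, 1500015O10Rik (ENSMUSG00000026051) chr1:43730602-43742578 on the plus strand, Lgals7 (ENSMUSG00000053522) chr7:28863853-28866284 on the plus strand, Nt5dc2 (ENSMUSG00000071547) chr14:31131053-31139124 on the plus strand and U90926 (ENSMUSG00000029409) chr5:92209893-92215408 on the minus strand. Prkg2 contains the processed pseudogene Gm3470 on its own strand, over 420 bases. Antisense models lie over 618 bases of 1500015O10Rik (Gm29155) and over all 2432 bases of Lgals7 (Gm10648), and the last 112 bases of Nt5dc2 overlap the end of Stab1 on the other strand. Whether the counting used strand is not given in the sources used here. Gm29155 and Gm10648 stood at most at 0.620 and 1.06 CPM in the epithelial-like, fibroblast-like, macrophage-like and endothelial-like classes. The promoters of 1500015O10Rik, which was near 0 in fibroblast-like cells of the young gland and high in those of both Tumor libraries, and of U90926, which went the other way, are shown as the 250 bases before the RefSeq start (GRCm38.p6), which end where the gene model begins. Capitals mark a CCAAT box.
1500015O10Rik, chr1:43730352-43730601, plus strand: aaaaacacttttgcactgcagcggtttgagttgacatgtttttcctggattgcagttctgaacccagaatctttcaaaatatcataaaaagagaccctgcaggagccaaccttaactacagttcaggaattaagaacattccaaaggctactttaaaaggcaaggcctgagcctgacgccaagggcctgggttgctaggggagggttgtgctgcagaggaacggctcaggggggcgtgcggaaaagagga
U90926, chr5:92215409-92215658, minus strand: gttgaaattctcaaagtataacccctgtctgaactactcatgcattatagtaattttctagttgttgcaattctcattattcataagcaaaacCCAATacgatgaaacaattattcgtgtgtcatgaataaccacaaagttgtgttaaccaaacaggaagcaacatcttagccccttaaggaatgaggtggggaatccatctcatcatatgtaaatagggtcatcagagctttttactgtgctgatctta
The 2 windows differed in base composition, with a GC content of 48.4% before 1500015O10Rik and 36.0% before U90926, against a median of 52.4% over all 32851 promoters of the table. For Lgals7 it was 58.8%, and for the 2 starts of Nt5dc2 74.8% and 56.4%. These windows reach into exons of GENCODE models. In all, 4 of 5 members matched the table, Prkg2 being the one without an entry. Both strands were searched for the TATA box TATAAA, the AP-1 motif TGANTCA, the GC box GGGCGG, the CCAAT box CCAAT, and the E2F motifs TTTCCCGC, TTTGGCGC, TTTCGCGC and TTTGCCGC. No match was found before 1500015O10Rik. A CCAAT box, which 33.8% of all promoters held, lay 157 bases before the start of U90926. A GC box, held by 32.7%, lay 197 bases before that of Lgals7, the first Nt5dc2 window held 3 GC boxes and 2 CCAAT boxes, and the second 1 and 2. No window of the 4 genes held a TATA box (12.4% of all promoters), an AP-1 motif (6.75%) or an E2F motif (1.86%).

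Prkg2, the kinase, was close to absent from epithelial-like cells of the young gland and present in most epithelial-like cells of Tumor 1. Its level in epithelial-like cells was 0.302 and 0 CPM in Prepuberty 1 and 2, 24.6 and 2.62 CPM in DCIS 1 and 2, and 361 and 32.7 CPM in Tumor 1 and 2. The highest value, that of Tumor 1, was 11.1 times that of Tumor 2, and the Tumor 2 value was 1.33 times that of DCIS 1, so the distance between Tumor and DCIS rested on Tumor 1, while both Tumor libraries stood far above Prepuberty. Pooled over a state's libraries, the Tumor level was 933 times the Prepuberty level, with a 95% counting interval from 319 to 4524 because only 3 UMIs were counted in Prepuberty. That pooled value rests mostly on Tumor 1, and the interval does not cover the spread between libraries. The share of epithelial-like cells with a Prkg2 UMI was 0.456% and 0% in Prepuberty 1 and 2, 8.45% and 1.39% in DCIS 1 and 2, and 86.5% and 25.2% in Tumor 1 and 2. With each cell thinned to 3000 UMIs, so that deeper cells had no advantage, the share in Tumor 1 was 58.0% (95% Wilson interval 55.9% to 60.0%) and in Tumor 2 6.21% (4.91% to 7.83%). In fibroblast-like cells the level was 7.73 and 1.04 CPM in Prepuberty 1 and 2, 3.92 and 4.87 CPM in DCIS 1 and 2, and 138 and 41.0 CPM in Tumor 1 and 2, and both Tumor libraries stood above the other 4, without overlap. In myoepithelial-like cells, the contractile basal layer of the duct, it was at most 7.66 CPM in the Prepuberty and DCIS libraries, and the Tumor cells of cluster 9, which lacked that layer's actin, had 465 CPM in Tumor 1 and 21.7 CPM in Tumor 2. In the T-cell-like class, which should lack the kinase, 4 UMIs were counted in Tumor 1 (9.31 CPM) and 0 in Tumor 2, where a count of 0 allows up to 9.57 CPM. The macrophage-like and endothelial-like classes of Tumor 1 were at that level, with 8.80 and 8.28 CPM.

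1500015O10Rik, the augurin gene, had its highest CPM in myoepithelial-like cells before the tumour and was high in fibroblast-like and epithelial-like cells in it. In fibroblast-like cells its level was 1.16 and 0.184 CPM in Prepuberty 1 and 2, 77.3 and 4.54 CPM in DCIS 1 and 2, and 981 and 258 CPM in Tumor 1 and 2. The Tumor libraries did not overlap the others, and DCIS 1 stood apart from DCIS 2. The share of fibroblast-like cells with a UMI was 1.20% and 0.118% in Prepuberty 1 and 2, 10.5% and 0.782% in DCIS 1 and 2, and 67.0% and 52.9% in Tumor 1 and 2. In epithelial-like cells the level was 1.01 and 0.520 CPM in Prepuberty 1 and 2, 5.87 and 5.78 CPM in DCIS 1 and 2, and 342 and 25.3 CPM in Tumor 1 and 2. Tumor 1 was again far above Tumor 2, 13.5 times, and 56.8% against 12.6% of cells carried a UMI. In myoepithelial-like cells the level was 34.7 and 8.94 CPM in Prepuberty 1 and 2 and 338 and 93.5 CPM in DCIS 1 and 2. The Tumor cells of cluster 9 had 1143 and 44.2 CPM in Tumor 1 and 2, on either side of the DCIS range. Of all UMIs of the gene, myoepithelial-like cells held 45.7% and 75.7% in DCIS 1 and 2, where they were 6.10% and 16.4% of the cells, and fibroblast-like cells held 43.2% and 7.62%, where they were 20.8% and 33.0% of the cells. In Prepuberty 1 and 2, with 64 and 16 UMIs in all, myoepithelial-like cells held 29.7% and 43.8% of them as 1.96% and 3.52% of the cells, and fibroblast-like cells 39.1% and 18.8% as 49.4% and 48.3% of the cells. In Tumor 2 the largest part, 52.5%, lay in fibroblast-like cells, 11.3% of the library, whereas in Tumor 1 58.5% lay in epithelial-like cells, 54.2% of the library. T-cell-like cells of the Tumor libraries held 1 UMI each.

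Lgals7, galectin-7, was already expressed by both layers of the young ductal epithelium, and its level in epithelial-like cells was 93.1 and 63.9 CPM in Prepuberty 1 and 2, 686 and 327 CPM in DCIS 1 and 2, and 2338 and 645 CPM in Tumor 1 and 2. Tumor 2 was 0.941 times DCIS 1, so the rise in Tumor over DCIS was that of Tumor 1. The share of epithelial-like cells with a UMI was 35.1% and 23.4% in Prepuberty 1 and 2, 71.3% and 53.7% in DCIS 1 and 2, and 98.9% and 86.9% in Tumor 1 and 2. In myoepithelial-like cells the level was 1396 and 328 CPM in Prepuberty 1 and 2 and 208 and 296 CPM in DCIS 1 and 2, with Prepuberty 1 far above the other 3. The Tumor cells of cluster 9 had 2988 and 707 CPM in Tumor 1 and 2. In fibroblast-like cells, the class with the largest change, the level was 0.648 and 0.0614 CPM in Prepuberty 1 and 2, 7.47 and 2.59 CPM in DCIS 1 and 2, and 485 and 368 CPM in Tumor 1 and 2. Both Tumor libraries stood far above the others there. The T-cell-like class of Tumor 1 held Lgals7 at 74.5 CPM, in 15.9% of cells, and that of Tumor 2 at 6.38 CPM, in 1.94%, with median depths of 1867 and 2543 UMIs. The ratio of Lgals7 to Epcam, an epithelial adhesion gene, was 0.865 in these T-cell-like cells of Tumor 1 and 0.888 in its epithelial-like cells, and 0.25 and 0.254 in Tumor 2. In fibroblast-like cells that ratio was 4.02 in Tumor 1 and 8.29 in Tumor 2, above that of the library's epithelial-like cells in both. In Tumor 1 it was carried by cluster 0, described below, with Lgals7 at 1099 and Epcam at 212 CPM, while clusters 3 and 12 had Lgals7 at 53.3 and 75.7 CPM and Epcam at 43.8 and 63.1 CPM, nearer to the ratio of the epithelial-like and T-cell-like cells than the 234 and 97.0 CPM of the 24 cells of cluster 4.

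Nt5dc2, the nucleotidase-domain gene, was, of the 4 members high in the tumours, the one whose higher value fell in Tumor 2. In epithelial-like cells its level was 2.92 and 4.16 CPM in Prepuberty 1 and 2, 14.5 and 6.56 CPM in DCIS 1 and 2, and 68.3 and 262 CPM in Tumor 1 and 2, and the share of cells with a UMI was 4.41% and 4.38% in Prepuberty 1 and 2, 10.9% and 6.5% in DCIS 1 and 2, and 43.0% and 68.7% in Tumor 1 and 2. Both Tumor libraries lay above all others, and Tumor 2 was 3.83 times Tumor 1. In fibroblast-like cells the level was 21.2 and 30.9 CPM in Prepuberty 1 and 2, 11.2 and 23.7 CPM in DCIS 1 and 2, and 115 and 140.0 CPM in Tumor 1 and 2. The Tumor libraries were close to each other in this class, and the Prepuberty and DCIS libraries overlapped. Fibroblast-like cells of the young gland held 80.8% and 83.3% of the UMIs of the gene in Prepuberty 1 and 2, where they were 49.4% and 48.3% of the cells, while in the Tumor libraries epithelial-like cells, 54.2% and 43.8% of the cells, held 59.9% and 58.1%. Fibroblast-like cells were 6.13% and 11.3% of the Tumor libraries. The shares of cells and the levels per class both changed between the states, and their parts in the shares of UMIs were not tested. Myoepithelial-like cells had at most 3.83 CPM in the Prepuberty and DCIS libraries, and the Tumor cells of cluster 9 had 59.1 and 206 CPM in Tumor 1 and 2. Stab1, whose end overlaps that of Nt5dc2, stood at 10.2 and 45.1 CPM in epithelial-like cells of Tumor 1 and 2 and at most at 3.78 CPM in the others, in the same direction as Nt5dc2, and its part in the Nt5dc2 counts was not tested. In fibroblast-like cells Stab1 was at 8.99 and 10.9 CPM in Tumor 1 and 2, within its range of 3.07 to 17.9 CPM in the others.

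U90926 was a transcript of fibroblast-like cells and was nearly gone from them in the tumours. Its level there was 200.3 and 47.8 CPM in Prepuberty 1 and 2, 14.6 and 76.8 CPM in DCIS 1 and 2, and 0.310 and 0.396 CPM in Tumor 1 and 2, from 4331, 778, 78, 710, 1 and 2 UMIs. The 3 UMIs of the Tumor libraries came from 2 of 553 cells. The Prepuberty and DCIS libraries overlapped, with DCIS 2 above Prepuberty 2. Pooled over libraries, the Tumor level was 372-fold lower than the Prepuberty level (95% counting interval 127 to 1804) and 149-fold lower than the DCIS level (50.8 to 723), and the fitted differences with a library left out are given with the other contrasts. The share of fibroblast-like cells with a UMI was 18.7% and 5.21% in Prepuberty 1 and 2, 1.25% and 4.46% in DCIS 1 and 2, and 0.379% and 0.346% in Tumor 1 and 2. UMIs were counted in a minority of cells, some of them rich in the transcript, and a count of 0 does not show that a cell lacked it. In Prepuberty 1, 390 cells held a median of 3 and up to 171 UMIs, and in DCIS 2 57 cells a median of 5 and up to 72. In DCIS 1 only 8 cells held any, 29 of its UMIs in 1 cell. Fibroblast-like cells held 95.2%, 94.5%, 89.7% and 97.0% of the UMIs of the gene in Prepuberty 1 and 2 and DCIS 1 and 2, where they were 49.4%, 48.3%, 20.8% and 33.0% of the cells. In epithelial-like cells it had at most 23 UMIs in a library and 2.32 CPM, and it did not pass the filter on low counts there. T-cell-like cells held 0 UMIs in every library.

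**Figure D1:**
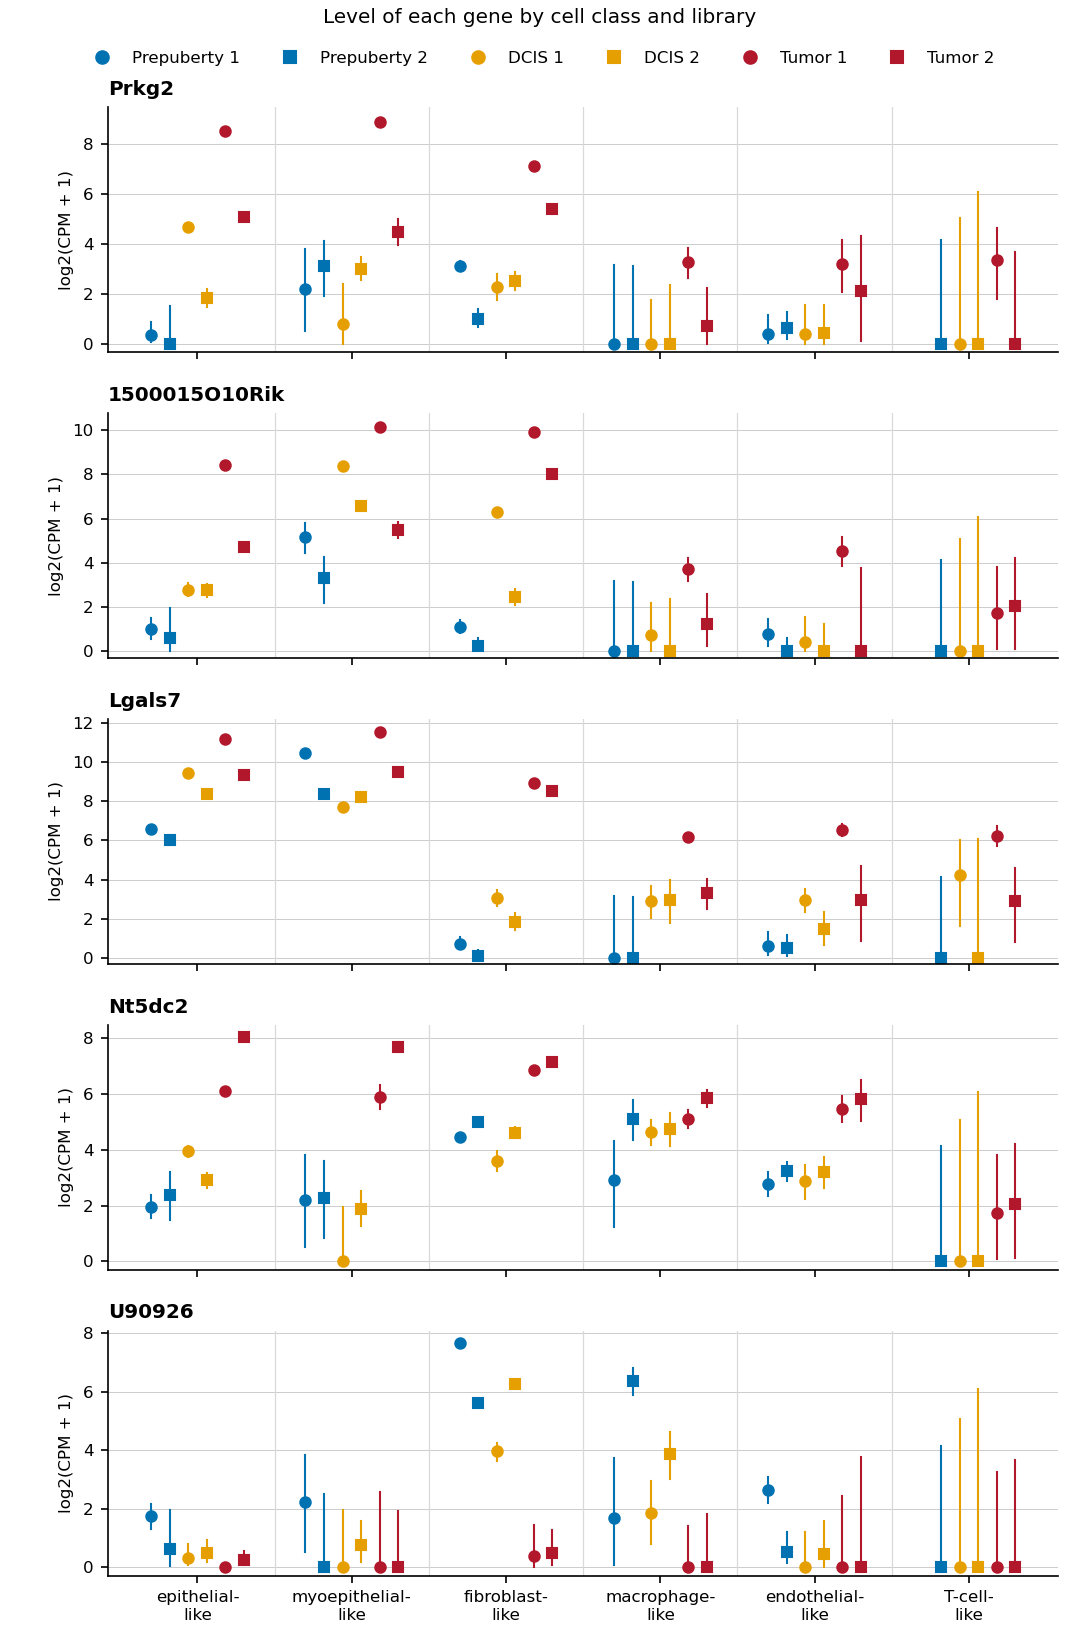
Level of each gene as log2(CPM + 1), by cell class, with 1 point per library of at least 10 cells and the exact 95% Poisson interval of its count as a bar, which covers counting error only. Prkg2, 1500015O10Rik, Lgals7 and Nt5dc2 are high in the Tumor libraries (red) of the epithelial-like and fibroblast-like classes, with Tumor 1 (circle) above Tumor 2 (square) for the first 3 and below it for Nt5dc2, whereas U90926 is near 0 in both. Under myoepithelial-like, the red points are the Tumor cells of cluster 9, which had 0 CPM of Acta2, and 1500015O10Rik and Lgals7 of Tumor 2 lie there within the range of the other libraries.

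The order of the classes differed between members and between states, and in Tumor the name myoepithelial-like stands here for the Tumor cells of cluster 9. In Prepuberty, Lgals7 was highest in myoepithelial-like cells (862 CPM on average) and next in epithelial-like cells (78.5 CPM), and the 2 classes did not overlap over their libraries, while in DCIS epithelial-like cells (506 CPM) lay above myoepithelial-like cells (252 CPM), again without overlap. In Tumor both overlapped and stood above fibroblast-like cells (427 CPM). For 1500015O10Rik, myoepithelial-like cells led in Prepuberty (21.8 CPM) and in DCIS (216 CPM), above fibroblast-like cells in DCIS (40.9 CPM), and in Tumor the fibroblast-like (619 CPM), myoepithelial-like (594 CPM) and epithelial-like (184 CPM) classes overlapped. Prkg2 followed the same 3 classes in Tumor, with myoepithelial-like (243 CPM), epithelial-like (197 CPM) and fibroblast-like cells (89.5 CPM) overlapping each other and all above endothelial-like cells (5.86 CPM). Nt5dc2 was led by fibroblast-like (26.0 CPM) and macrophage-like cells (20.2 CPM) in Prepuberty, which overlapped. In Tumor it was led by epithelial-like (165 CPM), myoepithelial-like (132 CPM) and fibroblast-like cells (127 CPM), which overlapped and stood above endothelial-like (49.4 CPM) and macrophage-like cells (45.2 CPM). U90926 was led by fibroblast-like cells in Prepuberty (124 CPM) and DCIS (45.7 CPM), with macrophage-like cells next (42.3 and 8.10 CPM). The 2 classes overlapped in Prepuberty, where macrophage-like cells of Prepuberty 2 were above its fibroblast-like cells, and did not in DCIS.

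The unnamed clusters of the Tumor libraries carried Prkg2, Lgals7 and Nt5dc2 at levels close to those of the epithelial-like class. For 1500015O10Rik they stood apart in Tumor 2, at 46.8 against 25.3 CPM, with 72.4 CPM in the 310 cells of unnamed cluster 13. Pooled Prkg2 was at 369 and 36.6 CPM and 1500015O10Rik at 303 and 46.8 CPM in Tumor 1 and 2. In these unnamed clusters Lgals7 was at 1942 and 679 CPM and Nt5dc2 at 72.9 and 243 CPM. The largest of them, cluster 5, passed 7 of 8 epithelial markers but had the keratinocyte marker Dmkn among its leading genes, and it held 393 and 223 cells of Tumor 1 and 2, with Prkg2 at 432 and 38.7 CPM, 1500015O10Rik at 225 and 4.15 CPM, and Lgals7 at 2088 and 991 CPM. The epithelial-like class was also made up differently in the states. Cluster 11, led by Tph1 and Cxcl15, held 325 and 51 of its 658 and 137 cells in Prepuberty 1 and 2, 150 and 348 of 994 and 862 in DCIS 1 and 2, and 18 and 45 of 2333 and 1117 in Tumor 1 and 2, whereas cluster 6, led by Pthlh, held 23 and 43, 31 and 27, and 875 and 290 cells. The 43 cells of cluster 6 in Prepuberty 2 had Dcn at 2682 CPM and Epcam at 130 CPM, which goes against the name epithelial-like, and the 1 UMI of 1500015O10Rik in that library's class lay in them. Within cluster 2, led by Ltf and Csn3, Prkg2 was at 0.431 and 0 CPM in Prepuberty 1 and 2, 11.7 and 2.04 CPM in DCIS 1 and 2, and 422 and 17 CPM in Tumor 1 and 2. Among epithelial-like clusters of Tumor 1 with at least 100 cells, Prkg2 ranged from 250.4 CPM in cluster 14 to 423 CPM in the cycling cluster 1 (led by Cenpf), and Nt5dc2 from 18.9 CPM in cluster 14 to 87.6 CPM in cluster 6. In Tumor 2, Nt5dc2 reached 408 CPM in cluster 6. Of the 45 cells of cluster 11 in Tumor 2, 11.1% had a T-antigen UMI, with 1.75 CPM of Prkg2, 3.51 CPM of 1500015O10Rik, 377 CPM of Lgals7 and 28.1 CPM of Nt5dc2. Among the epithelial-like clusters of Tumor 2 with at least 20 cells, these were the lowest values of Prkg2, Lgals7 and Nt5dc2. 1500015O10Rik was at 0 CPM in the 44 cells of cluster 14, of which 9.09% had a T-antigen UMI. In DCIS 1, Prkg2 stood highest, among clusters with at least 20 cells of the library, in the 31 cells of cluster 6, at 264 CPM, against 0 CPM in the 27 cells of that cluster in DCIS 2.

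Within the fibroblast-like class the members separated by cluster, above all in Tumor 1 for Prkg2, 1500015O10Rik and Lgals7. The class was made up differently in the states: cluster 4, led by Gsta1 and Pi16, held 512 and 461 cells of Prepuberty 1 and 2 and 24 and 16 of Tumor 1 and 2, whereas clusters 0, 3 and 12 held 89, 56 and 95 cells of Tumor 1 and 106, 87 and 80 of Tumor 2. Cells of cluster 0 in Tumor 1 held little of the matrix proteoglycan Dcn, at 11.1 CPM, of the receptor Pdgfra, at 3.95 CPM, and of the collagen Col1a1, at 43.5 CPM, while Epcam was at 212 CPM and T antigen was detected in 58.4% of them. Those markers go against the name fibroblast-like for these cells. Dcn stood at 4778 and 1001 CPM in clusters 3 and 12 of Tumor 1, where 8.93% and 21.1% of cells had T antigen. Prkg2 was at 309 CPM in cluster 0 and at 5.71 and 37.9 CPM in clusters 3 and 12. Lgals7 was at 1099 CPM in cluster 0 and at 53.3 and 75.7 CPM in clusters 3 and 12. In Tumor 1 both genes were thus highest in the cluster low in Dcn. 1500015O10Rik was at 237 CPM in cluster 0 and at 533 and 2150.2 CPM in clusters 3 and 12, the latter led by Col1a1. The 24 cells of cluster 4 in Tumor 1, where Dcn was highest at 7409 CPM, had the lowest 1500015O10Rik, 113 CPM, with Lgals7 at 234 CPM and Prkg2 at 24.3 CPM, so the level of 1500015O10Rik did not follow that of Dcn. In Tumor 2 clusters 0, 3 and 12 differed less in Dcn, Prkg2, Lgals7 and 1500015O10Rik, but not in Nt5dc2. Nt5dc2 was at 180, 87.6 and 76.6 CPM in these clusters of Tumor 1 and at 218, 83.9 and 55.9 CPM in those of Tumor 2. Prkg2 was at 29.2, 34.7 and 54.5 CPM in Tumor 2, of the 3 lowest in cluster 0, unlike in Tumor 1. Dcn was at 1679.8, 5360.2 and 4584 CPM in clusters 0, 3 and 12, with T antigen in 51.9%, 40.2% and 58.8% of cells. Lgals7 was at 444, 292 and 344 CPM in the same order. 1500015O10Rik was at 128, 413 and 362 CPM, of these 3 clusters lowest in cluster 0, as in Tumor 1. Without cluster 0, which was left out after its values were seen, the fibroblast-like sums of Tumor 1 and 2 gave Prkg2 at 27.5 and 50.5 CPM, 1500015O10Rik at 1460 and 363 CPM, Lgals7 at 89.8 and 306 CPM, and Nt5dc2 at 72.4 and 77.0 CPM, with 0 UMIs of U90926 in both.

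**Figure D2:**
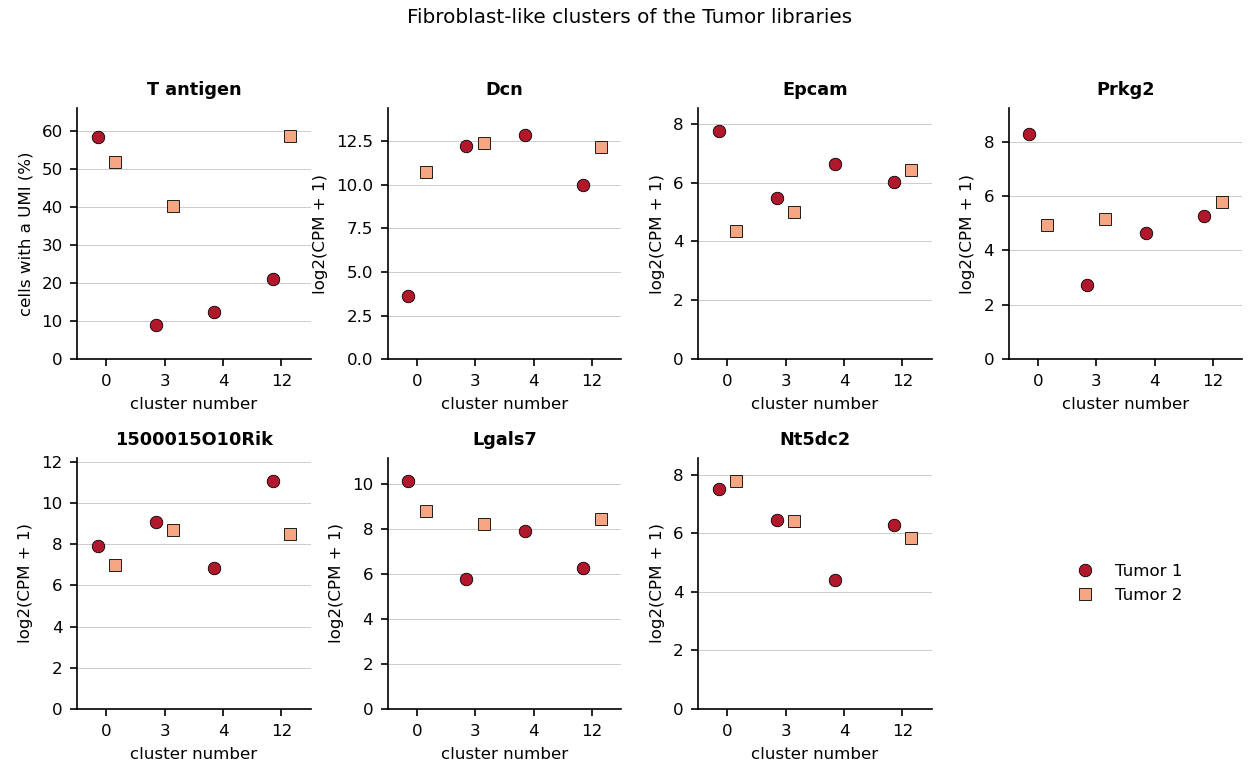
Fibroblast-like clusters of the Tumor libraries with at least 20 cells: the share of cells with a T-antigen UMI in percent, and the levels of Dcn, Epcam and 4 members as log2(CPM + 1), with 1 point per cluster and library and no error bars. In Tumor 1, cluster 0 has the lowest Dcn and the highest Prkg2 and Lgals7, and cluster 12 the highest 1500015O10Rik.

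Before the tumour, 1500015O10Rik was already present in the Col1a1-led cluster 12 of the DCIS libraries, at 284 CPM in DCIS 1 (124 cells) and 38.4 CPM in DCIS 2 (121 cells, of which 3.31% had a UMI, and 26 of the 42 UMIs of all fibroblast-like cells of that library lay in 1 cell), against 1.07 and 1.44 CPM in Prepuberty 1 and 2. U90926 was at 45.3 CPM in this cluster in Prepuberty 1, against 348, 184 and 154 CPM in clusters 0, 3 and 4, and at 25.9 CPM in Prepuberty 2, against 82.7, 44.6 and 20.2 CPM, so cluster 12 was the lowest of the 4 in the first library and not in the second. In DCIS 2 it was at 103, 96.5 and 62.4 CPM in clusters 0, 3 and 4 and at 0 CPM in cluster 12, as in DCIS 1. In the Tumor libraries clusters 3, 4 and 12 held 0 UMIs of U90926, and cluster 0 held 1 UMI in Tumor 1 and 2 in Tumor 2. In cluster 3 both Tumor libraries thus lay below each Prepuberty and DCIS library. In cluster 0 they did too, at 0.791 and 0.886 CPM, though DCIS 1 was itself at 3.07 CPM, and in cluster 12 both DCIS libraries were at 0 CPM as well. Cluster 21 held 0 cells of either Tumor library.

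The relation to T antigen was read within libraries, by dividing the cells of a class into those with and those without a T-antigen UMI. In epithelial-like cells as sequenced, more cells with T antigen than without it carried each of the 4 genes in both Tumor libraries. In Tumor 1, Prkg2 was detected in 89.5% of 1661 cells with and 79.0% of 672 cells without T antigen, and Nt5dc2 in 49.8% and 26.2%. Cells with T antigen were also deeper, with a median of 14590 against 7909 UMIs in Tumor 1 and 21729 against 10612 in Tumor 2. After thinning to 3000 UMIs, which left 940 and 1290 cells with and without T antigen in Tumor 1, Prkg2 was detected in 58.0% (95% Wilson interval 54.8% to 61.1%) and 58.0% (55.3% to 60.6%). The gap seen as sequenced was not detectable at equal depth. For Nt5dc2 the thinned shares were 15.2% and 14.7% in Tumor 1 and 49.4% and 37.6% in Tumor 2, in the latter with intervals from 42.1% to 56.8% and from 34.5% to 40.8%. For 1500015O10Rik they were 38.3% and 31.8% in Tumor 1 and 3.98% and 4.06% in Tumor 2. For Lgals7 they were 97.7% and 96.7% in Tumor 1 and 68.2% and 64.1% in Tumor 2. The largest remaining gap in epithelial-like cells of the DCIS and Tumor libraries was that of Lgals7 in DCIS 2, where 61.0% of 41 cells with and 33.7% of 722 cells without T antigen carried it. In DCIS 2 as sequenced, T antigen and Lgals7 were detected in 37.6% and 83.2% of cells of cluster 1. They were detected in 24.6% and 37.1% of cells of cluster 2 and in 4.89% and 46.0% of cluster 11. The part of the clusters in the Lgals7 gap was not tested. Thinning also lowers T-antigen detection, so cells without a UMI are not cells without the transgene.

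Summed over cells per library and T-antigen status and compared within libraries with edgeR's quasi-likelihood test, which reads depth-scaled levels in place of shares, none of the 4 members tested in epithelial-like cells passed an adjusted p of 0.05. The test called 1.61% of 11585 genes. The log2 difference, with minus without, was 0.08 (SE 0.14, adjusted p = 0.852) for Prkg2 and -0.03 (SE 0.12, adjusted p = 0.96) for Lgals7. It was 0.32 (SE 0.19, adjusted p = 0.487) for 1500015O10Rik and 0.28 (SE 0.10, adjusted p = 0.201) for Nt5dc2, which alone had an unadjusted p under 0.05, 0.0134. Whether the contrast differed between Tumor and DCIS was tested as an interaction, which called 0.187% of 11745 genes and none of the 4 members, with differences of -0.32 (SE 0.28, adjusted p = 0.726) for Prkg2, 0.38 (SE 0.46, adjusted p = 0.808) for 1500015O10Rik, -0.17 (SE 0.12, adjusted p = 0.660) for Lgals7 and 0.27 (SE 0.20, adjusted p = 0.659) for Nt5dc2. U90926 did not pass the filter in either.

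In fibroblast-like cells of the Tumor libraries, 62.8% of cells with and 30.5% without T antigen carried Lgals7 in Tumor 1, and 65.9% and 35.9% in Tumor 2, all after thinning. The 95% Wilson intervals of the shares with and without did not overlap in either library, counting error only being covered. In the summed test the difference of Lgals7 was 0.86 (SE 0.24, adjusted p = 0.263), with an unadjusted p of 0.00755, and it did not pass. Prkg2, at 0.52 (SE 0.43, adjusted p = 0.808), 1500015O10Rik, at -0.47 (SE 0.35, adjusted p = 0.790), and Nt5dc2, at 0.40 (SE 0.25, adjusted p = 0.740), did not pass either, in a comparison of 4 sums that called 0.425% of 10357 genes. In Tumor 1 the gap in Lgals7 went with the cluster. Inside cluster 0, 71.4% of 35 cells with and 81.2% of 48 cells without T antigen carried it. In the other fibroblast-like clusters of Tumor 1 the shares were 25% of 8 and 14.8% of 155 cells. In Tumor 2 the gap remained in both, with 64.3% of 14 against 41.0% of 83 cells in cluster 0 and 66.7% of 27 against 33.1% of 151 cells in the others. Without cluster 0 the summed differences of Prkg2, 1500015O10Rik and Nt5dc2 changed sign, and that of Lgals7 was 0.78 (adjusted p = 0.323). U90926, with 3 UMIs in these cells, could not be compared.

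**Figure D3:**
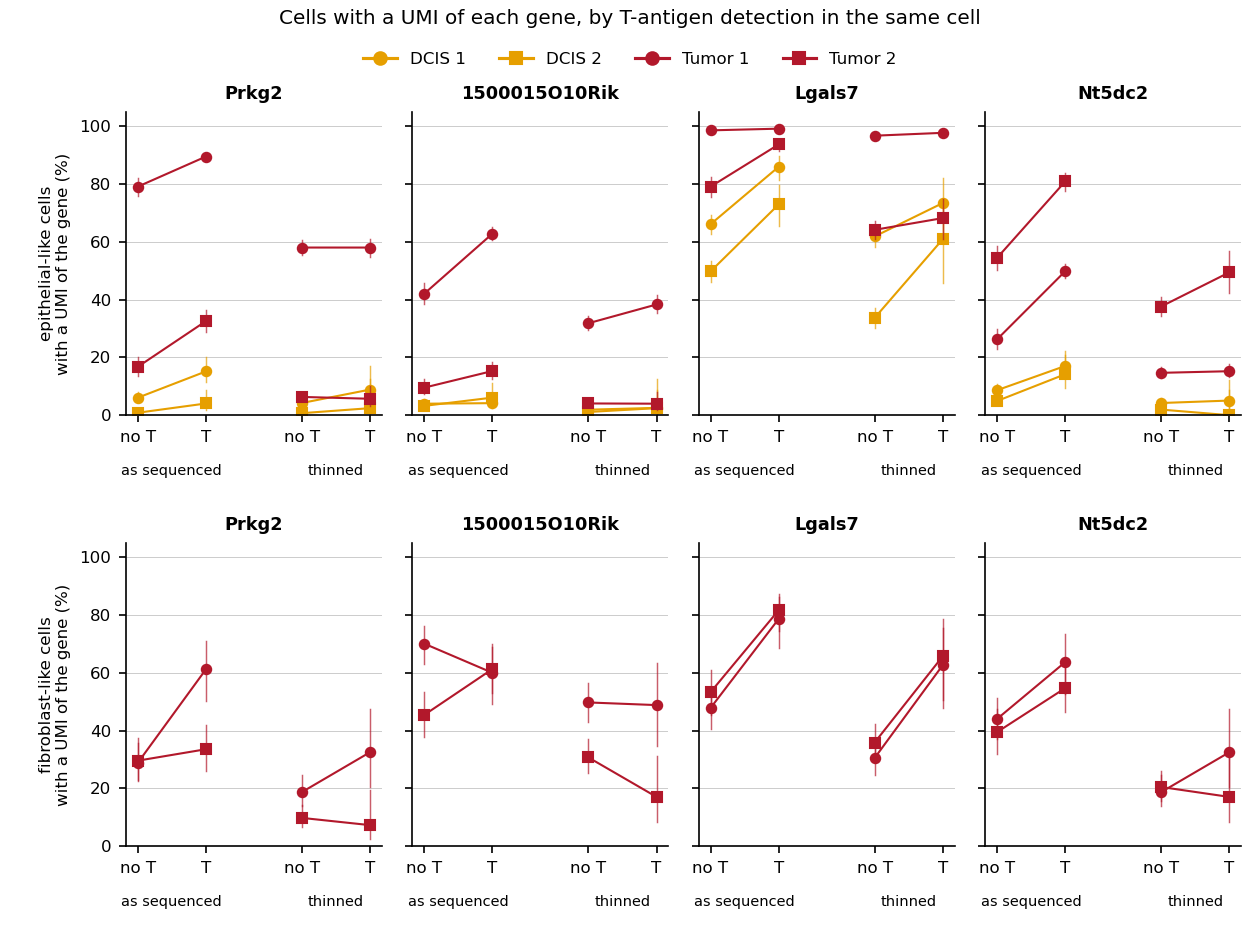
Share of epithelial-like (top) and fibroblast-like cells (bottom) with a UMI of each of 4 genes, in percent, in cells without (no T) and with (T) a T-antigen UMI of the same library, as sequenced and after thinning each cell to 3000 UMIs. Lines join the 2 shares of a library and bars are 95% Wilson intervals; the lines of Prkg2 in epithelial-like cells of Tumor 1 rise as sequenced and are level after thinning, and those of Lgals7 in fibroblast-like cells rise in both.

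Detection of one member was also set against that of another. After thinning, Lgals7 was found in 71.2% of fibroblast-like cells of Tumor 1 with a Prkg2 UMI and in 26.8% of those without, while 1500015O10Rik was found in 34.6% and 53.6%. Cluster 0, whose markers go against the name of the class, was high in Prkg2 and Lgals7 and lower in 1500015O10Rik than clusters 3 and 12. Detection of pairs was not counted within clusters, so the part of the clusters in both gaps was not tested. In epithelial-like cells of Tumor 1, 1500015O10Rik was found in 37.7% of cells with and 30.1% of cells without Prkg2. In Tumor 2, 1500015O10Rik was found in 34.6% of fibroblast-like cells with and 28.1% of those without Prkg2, and in 1.52% and 4.22% of epithelial-like cells, the former 1 of 66 cells, counts too small to give a direction. Lgals7 was found in 53.8% and 39.0% of fibroblast-like cells of Tumor 2 with and without Prkg2. Cells of 1 library are not replicates, and these shares carry no test.

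The step from Prepuberty to DCIS was not used to choose the genes and was tested, though it shares the Prepuberty libraries with the contrast that chose them. Of 13067 genes tested in epithelial-like cells 0% were called by edgeR, with 1495 at an unadjusted p under 0.05, and of 12161 in fibroblast-like cells 0%, with 1207. The members were therefore not called. In epithelial-like cells the log2 difference, DCIS minus Prepuberty, was 5.78 (SE 2.01, adjusted p = 0.393) for Prkg2, 2.76 (SE 1.38, adjusted p = 0.477) for 1500015O10Rik, 2.76 (SE 0.74, adjusted p = 0.319) for Lgals7 and 1.73 (SE 0.65, adjusted p = 0.413) for Nt5dc2. Both DCIS libraries were above both Prepuberty libraries for all 4. The share of all tested genes with that order was not counted, so the order carries no weight beyond the test. DESeq2 called 258 genes, among them Lgals7 (2.76, adjusted p = 0.00635). In fibroblast-like cells the differences were 6.07 (SE 1.56, adjusted p = 0.485) for 1500015O10Rik and 3.88 (SE 0.88, adjusted p = 0.485) for Lgals7, with unadjusted p of 0.00496 and 0.00249, and DESeq2 called both among 83 genes (adjusted p = 0.0474 and 0.000742). The Lgals7 levels behind this call, 7.47 and 2.59 CPM in DCIS 1 and 2, were no higher than those of macrophage-like cells, 6.49 and 6.81 CPM, or of T-cell-like cells of DCIS 1, 17.5 CPM from 2 UMIs, beyond counting error. Over the alternatives, Lgals7 passed in 2 of 13 alternatives (adjusted p from 2.59e-09 to 1.00) and 1500015O10Rik in 3 of 13 alternatives (adjusted p from 1.17e-23 to 1.00), and in epithelial-like cells Lgals7 in 2 of 13 alternatives (adjusted p from 3.34e-08 to 1.00). Prkg2, 1500015O10Rik and Nt5dc2 each passed in 1 of 13 alternatives in epithelial-like cells, the fit without a low-count filter (adjusted p = 2.66e-16, 3.14e-05 and 0.00677), which called 623 genes. Prkg2, at 0.20 (SE 0.96, adjusted p = 0.95), Nt5dc2, at -0.33 (SE 0.41, adjusted p = 0.784), and U90926, at -1.24 (SE 0.84, adjusted p = 0.608), did not pass in fibroblast-like cells in either test, and each changed sign when 1 library was left out. Without DCIS 1 the value of 1500015O10Rik in fibroblast-like cells was 2.92 (adjusted p = 1.00). As a description, and over clusters that differ in their shares between states, the fitted Tumor minus Prepuberty differences in epithelial-like cells were 9.44 for Prkg2, 7.51 for 1500015O10Rik, 4.06 for Lgals7 and 5.24 for Nt5dc2. The Tumor minus DCIS differences were 3.66, 4.75, 1.30 and 3.50, and without Tumor 1 they were 0.74 for Prkg2, 1.56 for 1500015O10Rik and -0.19 for Lgals7. The Tumor minus Prepuberty differences without Tumor 1 were 6.5 for Prkg2, 4.32 for 1500015O10Rik, 2.57 for Lgals7 and 5.84 for Nt5dc2, and that of Prkg2 was 14.7 without Prepuberty 1. Without Tumor 2, that of Nt5dc2 was 4.23. In fibroblast-like cells the Tumor minus DCIS differences were 3.76, 3.35, 5.78, 2.16 and, for U90926, -7.67. Without Tumor 1 that of Prkg2 was 2.25 and that of 1500015O10Rik 1.70, and without DCIS 1 the latter was 6.46. That of U90926 was -6.07 without DCIS 2 and -8.47 without DCIS 1, and its Tumor minus Prepuberty difference, -8.91, was -7.48 without Prepuberty 1 and -9.63 without Prepuberty 2.

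Macrophage-like and endothelial-like cells were not used to choose the genes either. Of the members, 3 passed the filter in macrophage-like and 2 in endothelial-like cells. Nt5dc2 rose in endothelial-like cells of the tumours, where its level was 5.91 and 8.42 CPM in Prepuberty 1 and 2, 6.34 and 8.21 CPM in DCIS 1 and 2, and 43.8 and 55.1 CPM in Tumor 1 and 2, from 34 and 58, 18 and 23, and 37 and 16 UMIs. The Tumor libraries did not overlap the others. The log2 difference was 2.68 (SE 0.33, adjusted p = 0.00281) against Prepuberty and 2.35 (SE 0.34, adjusted p = 0.00600) against DCIS, in fits that called 11.9% and 14.1% of 10439 genes, 7% and 7.46% as higher. The class was made up differently in the states, with 337 and 214 of 712 and 672 cells of Prepuberty 1 and 2 in cluster 10, led by the venous genes Ackr1 and Selp, against 8 and 3 of 80 and 34 of Tumor 1 and 2. Within cluster 7, which held the others, Nt5dc2 was at 8.63 and 7.67 CPM in Prepuberty 1 and 2, 6.55 and 7.67 CPM in DCIS 1 and 2, and 45.5 and 56.7 CPM in Tumor 1 and 2. It passed in 11 of 12 alternatives against each state, each left-out library and the cells without a T-antigen UMI among them. The exception was that of unintegrated clusters, where only 10 and 17 Tumor cells stayed endothelial-like and most others fell in an unnamed cluster, with differences of 0.46 (adjusted p = 0.896) and 0.21 (adjusted p = 0.941). T-cell-like cells of the Tumor libraries held Nt5dc2 at 2.33 and 3.19 CPM. Stab1, a scavenger receptor of endothelial cells and macrophages that overlaps the end of Nt5dc2, was at 45.9, 24.7, 57.4, 50.4, 111 and 96.4 CPM in endothelial-like cells in the same library order. It moved the same way in this class, and its part in the Nt5dc2 counts was not tested.

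Lgals7 was higher in endothelial-like cells of the Tumor libraries by test, at 6.80 (SE 1.09, adjusted p = 0.00732) against Prepuberty and 3.41 (SE 0.91, adjusted p = 0.0424) against DCIS, but 1 library decided it. It was 0.522 and 0.436 CPM in Prepuberty 1 and 2, 6.70 and 1.79 CPM in DCIS 1 and 2, and 92.2 and 6.89 CPM in Tumor 1 and 2, and 27 of the 78 UMIs of Tumor 1 came from 1 cell. Without Tumor 1 the differences were 3.47 (adjusted p = 0.280) and 0.06 (adjusted p = 0.983), and in cells without a T-antigen UMI the second was 2.26 (adjusted p = 0.105). As sequenced, 22.5% of endothelial-like, 25.3% of macrophage-like and 15.9% of T-cell-like cells of Tumor 1 held a UMI, at median depths of 7503, 4706 and 1867 UMIs. After thinning, the shares were 7.04% of 71 endothelial-like, 15.9% of 296 macrophage-like and 23.1% of 39 T-cell-like cells (95% Wilson interval 12.6% to 38.3%), the last the deepest of a class that should lack the gene. At equal depth the first 2 classes were not above it, and the part of free RNA in these values was not tested. In macrophage-like cells, whose fit called 6.04% of 7595 genes against Prepuberty and 6.62% against DCIS, Lgals7 was at 8.48 (SE 2.44, adjusted p = 0.0739) and 2.16 (SE 0.93, adjusted p = 0.177), and Nt5dc2 at 0.73 (SE 0.54, adjusted p = 0.472) and 0.23 (SE 0.47, adjusted p = 0.796). None of these passed. Lgals7 was at 0 CPM in this class in either Prepuberty library, so the counts do not fix the size of its first difference. The higher Tumor level was that of Tumor 1, 71.3 CPM. Tumor 2, with 8.91 CPM, lay close to DCIS 1 (6.49 CPM) and DCIS 2 (6.81 CPM). Over 9 alternatives Lgals7 passed in 4 against Prepuberty (adjusted p from 1.17e-07 to 0.251) and in 2 against DCIS (adjusted p from 0.0023 to 0.538), and Nt5dc2 passed in none of 12.

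U90926 was lower in macrophage-like cells of the Tumor libraries than in those of Prepuberty, with 1, 39, 4, 12, 0 and 0 UMIs in the usual library order, or 2.19 and 82.4 CPM in Prepuberty 1 and 2, 2.60 and 13.6 CPM in DCIS 1 and 2, and 0 and 0 CPM in Tumor 1 and 2. The log2 difference passed the test against Prepuberty (adjusted p = 0.020) and not against DCIS (adjusted p = 0.0828), in a fit that called 4.11% of genes as lower against Prepuberty. The 39 UMIs of Prepuberty 2 came from 3 of 83 cells, 28 of them from 1 cell, and without Prepuberty 2 the call was lost (adjusted p = 0.399). The share of macrophage-like cells with a UMI was at most 3.61% in any library. Against DCIS, U90926 passed in 3 of 12 alternatives.

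**Figure D4:**
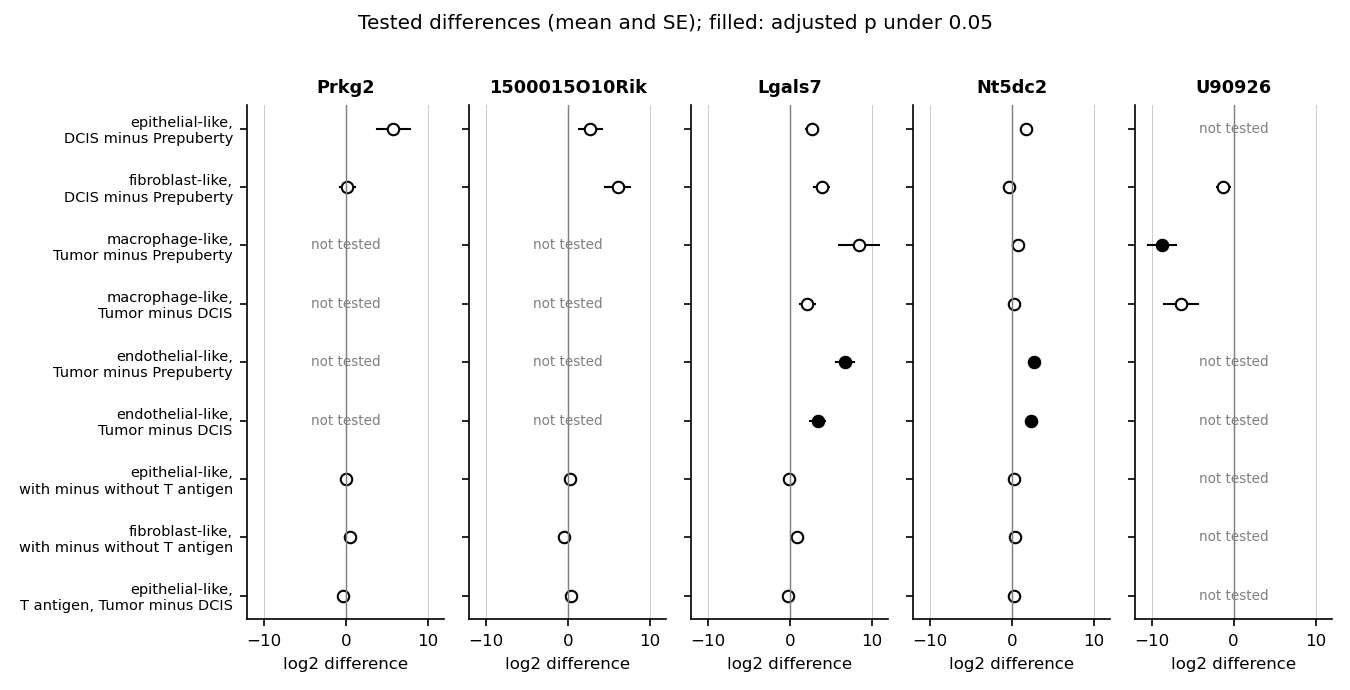
Tested log2 differences of each member (point) with the SE (bar), by cell class and comparison, from edgeR's quasi-likelihood test. Filled points have an adjusted p under 0.05: Lgals7 and Nt5dc2 in endothelial-like cells against both states, and U90926 in macrophage-like cells against Prepuberty.

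Genes around each member were followed as lists that left the members out. From Prepuberty to DCIS no gene of any list was called, as no gene was called at all. The medians in epithelial-like and fibroblast-like cells were 1.67 and 1.96 for stratified epithelium, -0.39 and 1.32 for genes induced by lipopolysaccharide, -0.37 and -0.02 for other galectins, -0.06 and -0.32 for cyclic GMP signalling, 0.13 and -0.60 for other nucleotidase genes, and -0.31 and -0.20 for candidate receptors of augurin, against 0.01 and -0.05 over all genes. The list of stratified epithelium holds Krt14, Krt5 and the desmosomal genes Dsp and Dsg3 among others, and not all of its genes rose in both Tumor libraries. In epithelial-like cluster 1, Krt5 was at 4.53 CPM in Prepuberty 1, 0.294 CPM in Tumor 1 and 10.7 CPM in Tumor 2. In Tumor minus Prepuberty, described only, the medians over all genes were 0.08 and 0.02 in epithelial-like and fibroblast-like cells. The list of stratified epithelium had the highest, 2.80 over 16 and 4.96 over 10 genes in that order. Epcam moved with it in fibroblast-like cells, from 6.57 and 1.47 CPM in Prepuberty 1 and 2 to 121 and 44.4 CPM in Tumor 1 and 2, as did Krt8, from 10.4 and 2.64 to 130 and 45.7 CPM, in a class that in Tumor 1 includes the cells of cluster 0 low in Dcn, and their part in the list's median was not tested. The other galectins had medians of -0.73 over 7 and -1.23 over 5 genes, and in Tumor minus DCIS of 0.28 and -1.15, against 0.08 and 0.13 over all genes. Genes of cyclic GMP signalling, which surround Prkg2, had medians of 0.02 over 12 and -0.09 over 14 genes, near those of all genes. Other nucleotidase genes had medians of 0.69 and -0.14, over 8 and 8 genes. Candidate receptors of augurin, such as Tlr4 and Cd14, had medians of -2.16 and -1.88 over 5 and 6 genes. Genes induced by lipopolysaccharide had medians of -1.45 and -0.69 over 14 and 14 genes. In the T-antigen test of epithelial-like cells, which called 1.61% of all genes, 1 of the 48 list entries tested was called, Nfkbia, an inhibitor of NF-kappa B, which was lower with T antigen (-0.36, adjusted p = 0.0246). In that of fibroblast-like cells, which called 0.425%, the chemokine Ccl2, 1 of 10 tested genes of the list induced by lipopolysaccharide, was lower (-1.76, adjusted p = 0.0302), but that test called 0 genes after thinning, with unintegrated clusters or without cluster 0. In the interaction, which called 0.187%, the antimicrobial Lcn2 was called (-0.62, adjusted p = 0.0468).

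The 3 genes most like each member were ranked by Pearson's r of log2(CPM + 1) over 41 sums of a library and class, among 10268 genes, as a description, since sums of 1 library share its depth and free RNA. For Prkg2 they included Ergic2 (r = 0.867) and Ereg (r = 0.851), of which Ereg encodes the growth factor epiregulin. For 1500015O10Rik they included Pthlh (r = 0.847), the parathyroid hormone-related peptide, and Prkg2 (r = 0.831). For Lgals7 they were Krt17 (r = 0.926), Pkp1 (r = 0.908) and Epcam (r = 0.906), a basal keratin, a desmosomal plakophilin and an epithelial adhesion gene. For Nt5dc2 they were Arhgap22 (r = 0.85), Aprt (r = 0.838) and Npy (r = 0.836), of which Aprt is an enzyme of purine salvage and Npy a neuropeptide. For U90926 they were Serpinb2 (r = 0.844), Akr1c18 (r = 0.782) and Saa3 (r = 0.758), of which Serpinb2 encodes an inhibitor of plasminogen activators and Saa3 an acute-phase protein.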

How the data were processed

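Single-cell transcriptomes of 6 libraries were analysed. The deposited values are raw UMI counts per gene and cell made with Cell Ranger 3.0.2, per the file headers; the submitters' processing notes also list STAR, SAMtools, Picard, Salmon and mm10 without a role. Cells with at least 200 genes and under 10% mitochondrial UMIs were kept, and those with the highest Scrublet scores (scanpy 1.11.5) were removed as doublets at 0.8% per 1000 cells. Libraries were integrated with Seurat 5.3.0 (2000 variable genes, 20 dimensions, resolution 0.8), and a cluster was named where at least 3 markers of a type were in at least 25% of its cells at 2-fold or more. The study's own cell annotation was not used here.

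Counts were summed per library and class and tested with edgeR 4.0.16 (quasi-likelihood test, TMM, filterByExpr, R 4.3.3), with Benjamini-Hochberg adjustment over all genes tested and a threshold of 0.05, on 1 fit over all 6 libraries per class. Cells with and without a T-antigen UMI were summed apart where a library had at least 20 of each. Total depth was 237076023 UMIs. Intervals and floors (3 UMIs) cover counting error only. On simulated counts with known changes the fits were checked. Alternatives were DESeq2 1.42.0, no low-count filter, each library left out, a replicate block, unintegrated clusters, thinning and stricter cell filters; those on cluster 0, on the Dmkn-led cluster 5 and on cells without a T-antigen UMI were added after seeing the data. The members and lists were chosen with earlier results of these data known, and no p-value is given for the Tumor contrasts of the classes that chose them. Besides the members, the genes named are the 3 most correlated with each (some are not reported here), list genes that were called, and the markers and overlapping genes beside a result.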

Additional observations from a re-analysis of the deposited data

How the results depend on the processing

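Over 12 alternatives each, Nt5dc2 in endothelial-like cells passed in 11 against Prepuberty and 11 against DCIS, and U90926 in macrophage-like cells against Prepuberty in 11, whereas Lgals7 in endothelial-like cells passed in 10 and 6. With DESeq2 the number of genes called was 258 and 83 for DCIS minus Prepuberty in epithelial-like and fibroblast-like cells, 95 for the T-antigen contrast of fibroblast-like cells and 46 for the interaction. Without the low-count filter it was 623 and 365 for DCIS minus Prepuberty, 1033 and 1172 in macrophage-like and 2240 and 2403 in endothelial-like cells (Tumor minus Prepuberty and minus DCIS), 646 and 94 for the T-antigen contrast of epithelial-like and fibroblast-like cells, and 375 for the interaction. With unintegrated clusters it was 58 and 64 in endothelial-like cells, 56 and 0 for the T-antigen contrasts and 153 for the interaction. Thinning gave 48 and 0 for the T-antigen contrasts, a minimum of 2 T-antigen UMIs gave 168 in fibroblast-like cells and 8 for the interaction, a mitochondrial limit of 5% gave 140 in fibroblast-like cells, and leaving out cluster 0 gave 0. The low-count filter changes which genes are tested, and the unintegrated endothelial-like class held fewer Tumor cells; otherwise the cause was not tested. The replicate block gave 13 genes for DCIS minus Prepuberty in fibroblast-like cells, with 1500015O10Rik among them, and the replicate numbers, which the labels do not tie to a mouse or day, were taken as numbers only.

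Signs reversed in contrasts that no member had passed. With T antigen minus without, Lgals7 was 0.15 in epithelial-like cells after thinning, and in fibroblast-like cells Prkg2 was -0.27 and 1500015O10Rik 0.068 with unintegrated clusters, and Prkg2 was -0.30, 1500015O10Rik 0.32 and Nt5dc2 -0.17 without cluster 0. In the interaction, 1500015O10Rik was -0.55 after thinning, -0.017 with a minimum of 2 T-antigen UMIs and -0.88 with unintegrated clusters, Lgals7 was 0.039 with unintegrated clusters and 0.015 with the Dmkn-led cluster added, and Nt5dc2 was -0.73 with unintegrated clusters.

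With 1 library left out in turn, the genes called for DCIS minus Prepuberty ranged from 0 to 1 in epithelial-like cells and stayed at 0 in fibroblast-like cells. They ranged from 217 to 765 and from 34 to 905 in macrophage-like cells and from 618 to 958 and from 386 to 1246 in endothelial-like cells, against Prepuberty and DCIS, from 8 to 261 for the T-antigen contrast of epithelial-like cells and from 12 to 123 for the interaction. The described Lgals7 difference, Tumor minus DCIS in epithelial-like cells, ranged from -0.19 to 2.01. For DCIS minus Prepuberty in fibroblast-like cells, Prkg2 ranged from -0.57 to 2.33, Nt5dc2 from -0.97 to 0.13 and U90926 from -2.87 to 0.20. For the T-antigen contrast of epithelial-like cells, Prkg2 ranged from -0.0072 to 0.26 and Lgals7 from -0.11 to 0.12, and for the interaction 1500015O10Rik from -0.66 to 1.64 and Nt5dc2 from -0.019 to 0.43. A lone library is assumed to vary like the other groups. The T-antigen contrast of fibroblast-like cells rests on 4 sums and leaves no residual degrees of freedom without a library, so it was not run there.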
